A study of Schizosaccharomyces pombe with 6 samples.

Results

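Centromere I of fission yeast and its flanks were examined in 200 bp bins, the unit in which the peaks of 3 chromatin immunoprecipitation (ChIP-seq) libraries were compared. The window ran from chrI:3721137-3821136, reaching 50 kb to the left and right of the *cnt* midpoint, and gave 500 bins of 62858 on the 3 chromosomes. A bin was assigned by its midpoint to the central core *cnt* (chrI:3769078-3773195, 20 bins), to the innermost repeats *imr* on either side (23 bins each), to the outer repeats *otr* (56 bins on the left, 60 on the right) or to a flank (161 bins on the left, 157 on the right). The borders of these parts cut 6 bins. The bins were set by position alone, and no measured value entered the rule, although the window was chosen with earlier results of these data known.

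The libraries came from 3 strains of *Schizosaccharomyces pombe*, each with 1 ChIP library, immunoprecipitated with an anti-GFP antibody. The untagged strain, described no further in the labels, carried no CFP-Cnp1 and showed what the antibody brought down without its target. By the study's strain list, the WT strain carried *CFP-cnp1* marked with kanamycin resistance and the auxotrophic alleles *ade6-704*, *leu1-32* and *ura4-D18*. The *SUMO-KallR* strain carried the same alleles and *pmt3-KallR*, a SUMO gene in which every lysine is changed to arginine so that SUMO chains cannot form. All 3 were exponential cultures in rich YES medium, mixed with a budding yeast calibrator before crosslinking. With 1 library a strain, no difference between strains could be set against an experimental error. Therefore no test was made, and every comparison below describes these libraries.

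Cnp1 is the fission yeast CENP-A, the histone H3 variant that marks the chromatin on which the kinetochore is built. In this yeast it is known to occupy *cnt* and the inner part of *imr*, while the *otr*, made of *dg* and *dh* repeats, is packed into heterochromatin with methylated histone H3 and produces noncoding RNA that feeds RNA interference. Clusters of tRNA genes in *imr* are known to act as barriers between these kinds of chromatin, and the IRC elements, inverted repeats at the outer edges of this centromere, are known to stop heterochromatin from entering the flanks.

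A feature of the sequence bears on every value in the window. The arms of centromere I are near copies of each other. Inverted repeats joined chrI:3756244-3769077 to chrI:3773196-3786038 with 99.68% identity over 12844 aligned bases, and an outer pair, chrI:3752588-3754866 and chrI:3788242-3790520, was 100% identical. Of 16485 aligned base pairs in all repeats, 99.78% were the same. The right *otr* was the longer, with 11999 bp against 11164 bp. Most of *cnt* also has a copy elsewhere. The stretch chrI:3769549-3772855 matched chrIII:1098933-1102240 with 99.79% identity and 6 mismatches. A start position was called unique when the 150 bases from it, a read's length, were found at no other place of the genome. Unique starts made up 97.4% of positions in the left flank and 97.8% in the right flank. They made up 15.2% and 14.0% in the left and right *otr*, 6.67% and 3.35% in the left and right *imr*, and 29.3% in *cnt*. In 11 of the 20 *cnt* bins no such start was unique. The placement of a peak on 1 arm or the other therefore depends on how reads with several matches were treated, which is not given in the sources used here. A line in the lists names the tracks as uniquely mapped. However, 136 of the 137 window bins with no unique start were under WT peaks. That line is therefore not read here as showing that reads with several matches were left out.

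The highest point of both tagged libraries fell in the same bin of the right *imr*, in SPNCRNA.396, a noncoding RNA gene, with the WT and *SUMO-KallR* summits 36 bp apart. No 150-base start in this bin was unique, so a read from the summit on the right could not be told from one of the matching bin on the left. That bin was wholly under the same peak in WT and in *SUMO-KallR*, and no base of it was under an untagged peak.

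In the *otr* each arm held a stretch that was under a peak of no library, near the outer end of the long inverted repeat. It measured 278 bp on the left (79.1% AT) and 173 bp on the right (83.8% AT). These stretches were richer in unique sequence than the *otr* around them, with 61.5% of the 150-base starts unique on the left and 82.1% on the right.

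A stretch of 291 bp in the right *otr*, chrI:3782867-3783157, is shown first because it separated the WT peak over *cnt* from the next WT peak and lay under a *SUMO-KallR* peak. It differed from its left copy, chrI:3759117-3759406, by 1 base, shown in capitals in a run of A that is 1 base shorter in the left copy.

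right *otr* stretch, plus strand: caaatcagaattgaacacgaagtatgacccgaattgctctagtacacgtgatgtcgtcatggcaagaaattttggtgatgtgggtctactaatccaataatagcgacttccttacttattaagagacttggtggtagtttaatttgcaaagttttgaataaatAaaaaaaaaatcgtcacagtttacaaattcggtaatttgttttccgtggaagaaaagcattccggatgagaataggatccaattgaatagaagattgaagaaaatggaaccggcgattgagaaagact

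Of the 8 tRNA genes in the window, 6 lay in *imr* as 3 identical pairs, 1 of each pair on each arm, and 6 of 8 held GGTTCGA, the core of the B box, which is the internal promoter element bound by the RNA polymerase III factor TFIIIC. The motif was sought on both strands and was found in 8 of the 500 bins (1.6%) and in 1.1% of all 200 bp bins of the genome. tRNA-Glu.04 (SPATRNAGLU.04, chrI:3776768-3776839, plus strand) and tRNA-Phe.02 (SPATRNAPHE.02, chrI:3752334-3752406, minus strand) are shown with the motif in capitals, because the first stood where the untagged peaks began on the right and the other lay in a stretch without a WT peak.

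tRNA-Glu.04: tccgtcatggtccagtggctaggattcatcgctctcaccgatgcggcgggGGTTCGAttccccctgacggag

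tRNA-Phe.02: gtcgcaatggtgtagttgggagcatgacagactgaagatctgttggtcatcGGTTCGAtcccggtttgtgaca

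The 3 lists covered very unequal shares of the window. A bin counted as under peaks when at least 50% of its bases were. Untagged peaks took 429 of 500 bins (85.8%), WT peaks 208 (41.6%) and *SUMO-KallR* peaks 495 (99%). Outside the 100 kb windows of the 3 centromeres, 95.6% of 61355 bins were under untagged peaks, 0.0244% under WT peaks and 92.7% under *SUMO-KallR* peaks. The untagged library was thus the 1 whose peaks covered a lower share of the window than of the rest of the genome. The plot of peaks by distance shows where the lists differ.

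**Figure D1:**
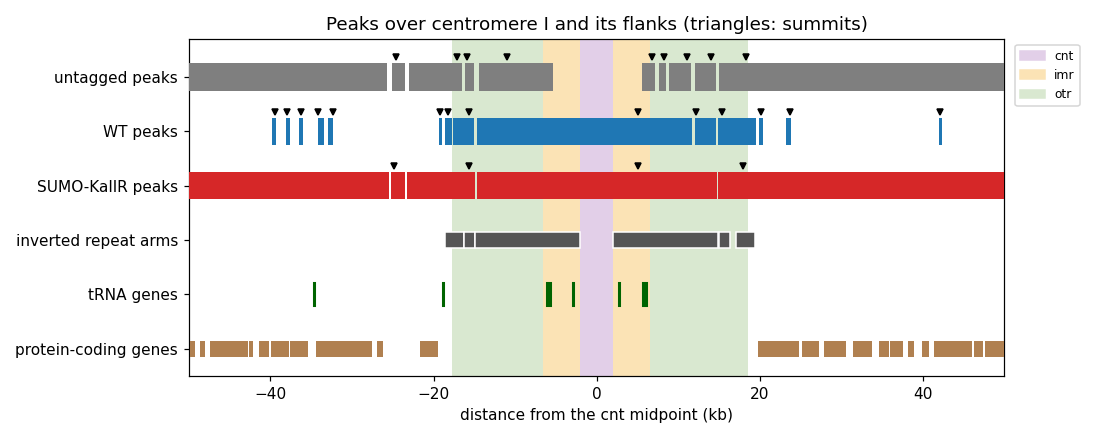
Peaks of the 3 libraries against the distance from the *cnt* midpoint (kb), with summits as triangles and with the arms of the inverted repeats, the tRNA genes and the protein-coding genes below. Peaks of WT and *SUMO-KallR* run across *cnt* and both *imr*, while the untagged list is bare over 11034 bp there, and outside the *otr* WT has 10 short peaks where the other lists are nearly continuous.

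Over the centre the tagged libraries shared every bin. All 66 bins of *cnt* and *imr* were wholly under 1 peak in WT and under 1 peak in *SUMO-KallR*. No *cnt* bin was touched by an untagged peak. In the untagged strain 6 of 23 left *imr* bins and 5 of 23 right *imr* bins were under peaks, all in the outer part of *imr*. A single stretch of 11034 bp, chrI:3765727-3776760, had no untagged peak. On the left the untagged peak stopped 3352 bp from *cnt*, 221 bp past tRNA-Glu.03 (SPATRNAGLU.03), and on the right the next began 3566 bp from *cnt*, 7 bp before tRNA-Glu.04, which is the identical copy. The tRNA-Glu and tRNA-Ala genes of both arms were therefore under peaks in all 3 libraries. The tRNA-Ile genes nearer to *cnt* were under peaks of WT and *SUMO-KallR* and in the untagged strain under none.

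WT peaks that no untagged peak covered were a feature of the centre. Of the 62 bins under WT and not under untagged peaks, 17 lay in the left *imr*, 20 in *cnt* and 18 in the right *imr*, with 2 in the left and 5 in the right *otr* and 0 in the flanks. Outside the 3 windows 0% of bins had this pattern. All 62 were also under *SUMO-KallR* peaks. Their median AT share was 72%, against 67.2% for the 146 bins under peaks of all 3 libraries, and 46 of the 62 had no unique 150-base start.

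The *otr* was covered in all 3 libraries. Untagged peaks covered 52 of 56 bins on the left and 52 of 60 on the right, WT peaks 53 and 57, and *SUMO-KallR* peaks 54 and 60. By base, the untagged share was 90.6% on the left and 85.6% on the right, the WT share 95.6% and 95.9%, and the *SUMO-KallR* share 97.5% and 98.6%. In these repeats the untagged strain, which has no tagged protein, was thus under peaks over nearly as much sequence as the tagged strains. By bin the shares in the *otr* were 89.7% untagged, 94.8% WT and 98.3% *SUMO-KallR*, against 95.6%, 0.0244% and 92.7% outside the 3 windows. Only the WT share was thus far from that of the rest of the genome. Of the 131 centromere bins with no unique start, 85 were under untagged peaks, 130 under WT peaks and all 131 under *SUMO-KallR* peaks. Over all 182 centromere bins the counts were 115, 176 and 180.

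The width of the peak over *cnt* differed between WT and *SUMO-KallR* at the right end. In WT the peak ran over 26358 bp, from 12569 bp left of *cnt* to 9671 bp right of it. In *SUMO-KallR* it ran over 29388 bp, from 12608 bp left to 12662 bp right. The left ends lay 39 bp apart and the right ends 2991 bp apart. The difference rested on the 291 bp stretch printed above, which had no WT peak. Beyond it a WT peak of 2678 bp and height 57.5 went on to 3785835, 22 bp short of the *SUMO-KallR* end. With peaks less than 500 bp apart joined in both lists, the WT peak took in its neighbours and reached 17263 bp left and 18384 bp right of *cnt*, and the *SUMO-KallR* peak, joined to the broad flank peaks, reached 104278 bp and 73499 bp, so the lists then differed at both ends. All 290 aligned bases of the left copy of this stretch were under peaks in each of the 3 libraries.

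Height, the authors' score divided by 10 and taken as the highest −log10 of the *p*-value in the peak, was used to rank peaks within a list. A peak has 1 summit, so all bins under it share 1 height. The WT peak over *cnt* was the highest of the 59 WT peaks, at 4139.3. Of the *otr*, this peak also covered 8088 bp on the left arm and 5190 bp on the right arm. The 3 WT peaks in the rest of the *otr* ranked 20, 22 and 27, with heights of 57.5 (chrI:3783158-3785835), 56.8 (chrI:3753568-3756154) and 51.7 (chrI:3786042-3790729). The other 10 WT peaks of the window lay in the flanks at 1.8 to 4.9. The *SUMO-KallR* peak over *cnt* had a height of 4371.2, second to a peak on chromosome III among 1615, and the peaks beside it reached 143.5 on the left and 165.5 on the right. In the untagged list the highest of the window, chrI:3756770-3765726 at 121.4, had its summit in the left *otr*, and it ranked 18 of 961. Outside it on the left lay chrI:3754998-3756047 (54.0). On the right the repeats held chrI:3776761-3778329 (23.6), chrI:3778801-3779650 (56.4), chrI:3779979-3782753 (70.9) and chrI:3783248-3785719 (11.5), so the single broad untagged peak of the left arm faced 4 shorter ones, each of lower height. The plot of heights shows the same 3 levels in WT, with a step at each end of the peak over *cnt*.

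**Figure D2:**
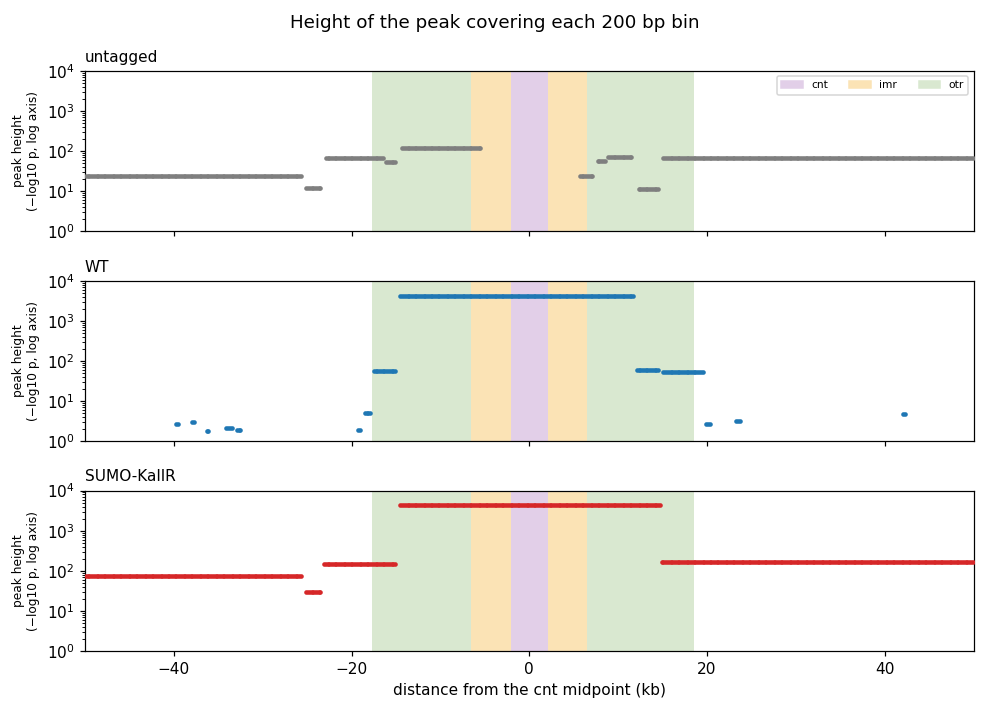
Height of the peak covering each 200 bp bin (log axis) against the distance from the *cnt* midpoint (kb), for bins at least 50% under a peak. WT bins sit at 4139.3 over *cnt*, both *imr* and the inner part of the *otr* on each arm. They sit between 51.7 and 57.5 under the 3 other peaks that reach the *otr*, the outer right one of which runs into the flank. Under the 10 flank peaks they sit between 1.8 and 4.9. Heights of different libraries are not on a common scale.

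The arms were compared by pairing bins at equal distances from the *cnt* midpoint, 250 pairs in all. In WT both bins of 91 pairs were under peaks, 14 pairs had only the left bin and 12 only the right bin, so 26 pairs differed. Of these, 2 were among the 93 pairs nearest *cnt* that hold the centromere. In the untagged strain 13 pairs differed, 9 of them among the 93, and in *SUMO-KallR* 5 pairs differed, 2 of them among the 93. Most WT pairs that differed thus lay in the flanks.

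In bands of 5 kb (25 bins a side), the WT count was 25 on both arms up to 10 kb, 23 on the left and 22 on the right from 10 to 15 kb, and 19 and 24 from 15 to 20 kb. From 20 to 25 kb there were 0 bins on the left and 5 on the right, from 30 to 35 kb 7 and 0, from 35 to 40 kb 6 and 0, and from 40 to 45 kb 0 and 2. No WT bin was under a peak from 25 to 30 kb or beyond 45 kb. *SUMO-KallR* had 23 to 25 bins in every band of both arms, and the untagged strain 0 within 5 kb of the midpoint and 19 to 25 in every other band.

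**Figure D3:**
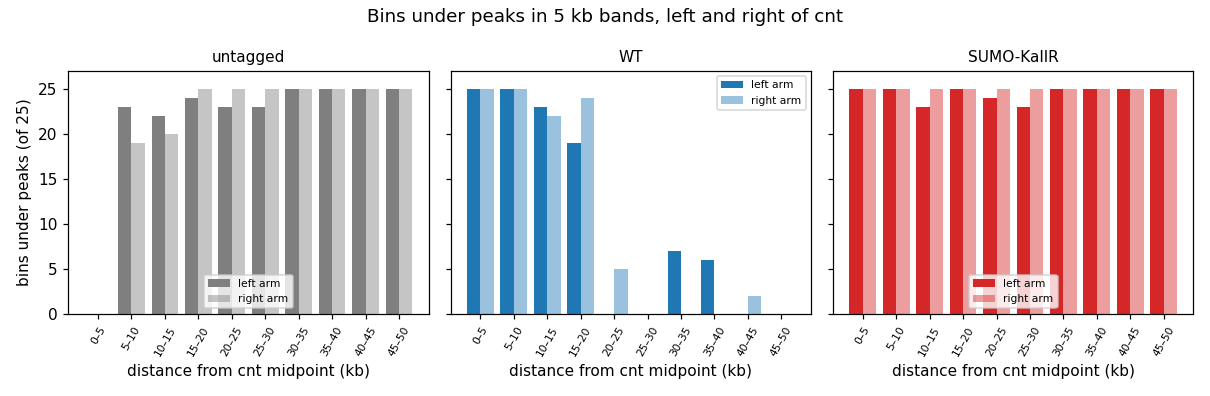
Bins under peaks in 5 kb bands of distance from the *cnt* midpoint, of 25 bins a side, for the left (dark) and right (pale) arm in each library. WT counts fall from 25 to 0 or 5 between the innermost band and 20 to 25 kb, while *SUMO-KallR* stays at 23 to 25 throughout.

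By aligned bases of the inverted repeats, a comparison added after the values had been seen, the share of 16485 base pairs under a peak on 1 arm only was 13.2% for untagged peaks, 3.81% for WT peaks and 0.661% for *SUMO-KallR* peaks. The untagged imbalance was 1505 bp with a peak on the left alone and 665 bp on the right alone. It included 3 stretches of the right *otr* without an untagged peak, chrI:3778330-3778800 (471 bp), chrI:3779651-3779978 (328 bp) and chrI:3782754-3783247 (494 bp), whose left copies were wholly under 1 untagged peak. The last of these held the 291 bp stretch without a WT peak. The left *otr* had 1 such stretch, chrI:3754676-3754997 (322 bp), across the end of *nam5*, a noncoding RNA gene, and its right copy was under an untagged peak.

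The stretches without a peak in the shared positions lay at the same place of the repeat on both arms. On the left the untagged list was bare over 722 bp, WT over 354 bp and *SUMO-KallR* over 278 bp. On the right these were 436 bp, 206 bp and 173 bp. Each stretch lay inside the next wider one. On each arm 1 bin at these stretches was among the 4 richest in AT of the 500, at 79.5%. The next bin outward, which held the rest of the *SUMO-KallR* stretch, had 72.5% on the left and 77% on the right. The 2 richer bins, at 81% and 80.5%, lay in the left flank and were wholly under untagged and *SUMO-KallR* peaks. The plot of AT, unique sequence and WT peaks shows the stretches as dotted lines.

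**Figure D4:**
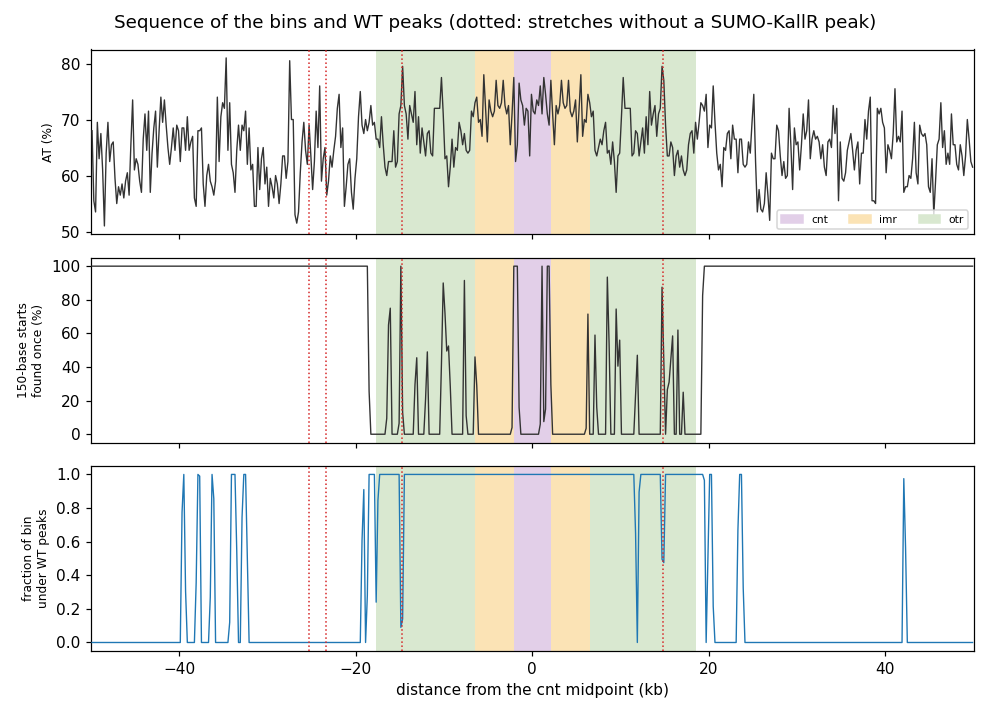
AT share (%), share of 150-base starts found once in the genome (%) and fraction under WT peaks of each 200 bp bin against the distance from the *cnt* midpoint (kb), with dotted lines at the 4 stretches without a *SUMO-KallR* peak. Unique sequence drops from 100% in the flanks to near 0 over most of the centromere. Each of the 2 dotted lines in the *otr* falls between a bin of 79.5% AT and the next bin outward (72.5% on the left, 77% on the right).

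A bin under a *SUMO-KallR* peak and not under a WT peak was rare in the repeats. There were 4 such bins among 116 in the *otr* and 0 in *imr* and *cnt*. The bin at chrI:3782937-3783136 was wholly under the *SUMO-KallR* peak and had no base under a WT or untagged peak. The bin at chrI:3753337-3753536, in IRC1-L, had a fraction of 0.24 under WT peaks and lay wholly under the others. At the right shared stretch, 1 bin had a fraction of 0.495 in WT and 0.605 in *SUMO-KallR*, and the next had 0.475 and 0.53, so both fell on different sides of the 50% rule by small differences. No bin of the window was under a WT peak and not under a *SUMO-KallR* peak.

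Most bins of this kind lay in the flanks, with 283 of 318 bins. Outside the 3 windows the share was 92.7%, so in the flanks it was close to that of the genome. In 282 of the 283 the untagged strain also had a peak. The remaining flank bin and 3 in the *otr* were the 4 bins of the window under a *SUMO-KallR* peak alone, and outside the windows 0.953% of bins had this pattern. *SUMO-KallR* peaks took 315 of the 318 flank bins and untagged peaks 314. The flanks were covered by few and very broad peaks. In *SUMO-KallR* chrI:3700540-3745628 (height 76.1), chrI:3745976-3747684 (30.0) and chrI:3747912-3756191 (143.5) covered the left and chrI:3786031-3846694 (165.5) the right. In the untagged strain chrI:3710440-3745488 (23.5), chrI:3746026-3747637 (11.7) and chrI:3748079-3754675 (67.1) covered the left and chrI:3786156-3846668 (66.8) the right. The peaks at 143.5, 165.5, 67.1 and 66.8 had their summits in the *otr*. Those at 76.1 and 23.5 had theirs outside the window. These heights therefore do not give the signal in the flanks. Only the peaks at 30.0 and 11.7 had their summits in a flank of the window.

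Both lists were broken at 2 points of the left flank, at overlapping positions, over 537 bp (chrI:3745489-3746025) and 441 bp (chrI:3747638-3748078) in the untagged strain and over 347 bp (chrI:3745629-3745975) and 227 bp (chrI:3747685-3747911) in *SUMO-KallR*. All 4 lay in or beside the overlapping noncoding RNA genes SPNCRNA.934 and SPNCRNA.935, and WT had no peak there. The right flank had no such break in either list. All 31 protein-coding genes that touch the window were wholly under peaks in the untagged strain and in *SUMO-KallR*. Outside the 3 windows 95.6% and 92.7% of bins were under peaks of these lists, and the share over all genes was not counted.

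In WT, peaks stopped near both outer ends of the outer inverted repeat, on the left only through a low peak of the flank. The left peak chrI:3752481-3753384, of height 4.9, began 107 bp outside that end, and the right peak chrI:3786042-3790729 ended 209 bp outside it, 18655 bp and 19593 bp from the *cnt* midpoint. On both sides these ends lay beyond the *otr* as defined here, by 952 bp and 1054 bp. The left peak lay wholly in the flank, and the lowest height floor used, 5, removed it. At that floor the leftmost WT peak of the window began at 3753568, inside the repeat, which starts at 3752588. The stop near the repeat end thus held at that floor on the right only. The IRC elements lay at the outer edges of the *otr*. IRC1-L (chrI:3753160-3753692) was wholly under untagged and *SUMO-KallR* peaks and 65.7% under WT peaks, with 183 bp of it (chrI:3753385-3753567) bare in WT. IRC1-R (chrI:3789400-3789948) was wholly under peaks in all 3 libraries. The 183 bp were identical in both arms and held no unique 150-base start, and their right copy was under a WT peak. They are shown because WT placed a peak on 1 of the identical copies.

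IRC1-L stretch, plus strand: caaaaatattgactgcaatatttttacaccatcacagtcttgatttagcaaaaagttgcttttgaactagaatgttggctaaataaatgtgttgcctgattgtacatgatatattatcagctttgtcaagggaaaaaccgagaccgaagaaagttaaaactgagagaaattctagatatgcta

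Left of the peak at this edge, WT was bare over 362 bp (chrI:3752119-3752480), which held tRNA-Phe.02. Outside it the WT peak chrI:3751815-3752118 (height 1.9) covered noncoding RNA genes SPNCRNA.3671 and SPNCRNA.3672, and from there 12981 bp (chrI:3738834-3751814) were bare. That bare stretch held *lys1*, a gene of lysine synthesis, *rpl1002*, which encodes a ribosomal protein, and *per1*. tRNA-Arg.02 (SPATRNAARG.02, chrI:3736520-3736592), the other tRNA gene of the left flank, was also without a WT peak and under peaks in the other libraries.

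The WT peaks wholly outside the *otr* were 10, with 7 on the left and 3 on the right, 304 to 904 bp wide, 5348 bp in all and of median height 2.65. Their bins made up 19 of 161 left flank bins and 13 of 157 right flank bins, and these counts include the end of the right *otr* peak. Each lay where the untagged and *SUMO-KallR* lists had broad peaks. On the left, chrI:3731382-3731797 (2.6) lay in *grx2*, which encodes a glutaredoxin, chrI:3733066-3733534 (2.9) had its summit in *fub1*, chrI:3734683-3735107 (1.8) lay in *gua2*, a gene of GMP synthesis, and chrI:3736913-3737645 (2.1) and chrI:3738188-3738833 (1.9) lay in *prm1*, a gene of cell fusion. On the right, chrI:3791036-3791579 (2.7) lay in *emc5*, a subunit of the ER membrane complex, chrI:3794403-3795001 (3.2) lay in *rad50*, a subunit of the complex that processes DNA breaks, and chrI:3813142-3813449 (4.6) lay in *any2* and the overlapping SPAC1F12.06C. Thus 8 of the 31 protein-coding genes were touched by a WT peak and none was wholly under one. The largest part of a gene under WT peaks was 65.3%, in *emc5*. Outside the 3 windows 0.0244% of bins were under WT peaks, and the share over all genes was not counted.

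Set beside the other centromeres in windows of the same size, centromere I had the fewest WT bins, with 208 against 218 on chromosome II and 260 on chromosome III. By the paper, the number of *dg* and *dh* repeats varies between the 3 centromeres. The borders of *otr* were not located on chromosomes II and III, so no count in this comparison was adjusted for centromere length or for the share of flank in a window. Centromere I had 14 WT peaks, against 12 and 25. Of these 4 reached a height of 5, against 11 on chromosome II and 25 on chromosome III. In turn 6 WT peaks lay elsewhere on chromosome I, the highest at 6.4, and 1 on each of the others. Bins under *SUMO-KallR* alone numbered 4, 4 and 45 on chromosomes I, II and III, and bins under no peak 5, 6 and 11. On all 3 chromosomes 0 bins were under WT and not under *SUMO-KallR*. The windows of II and III were centred on a *cnt* located as the space between the arms of the innermost inverted repeat, a rule that found *cnt* of chromosome I at the base. The mirrored pairs that differed were fewest on chromosome I in each list, with 13, 26 and 5 in untagged, WT and *SUMO-KallR*, against 20, 36 and 7 on chromosome II and 46, 76 and 11 on chromosome III.

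**Figure D5:**
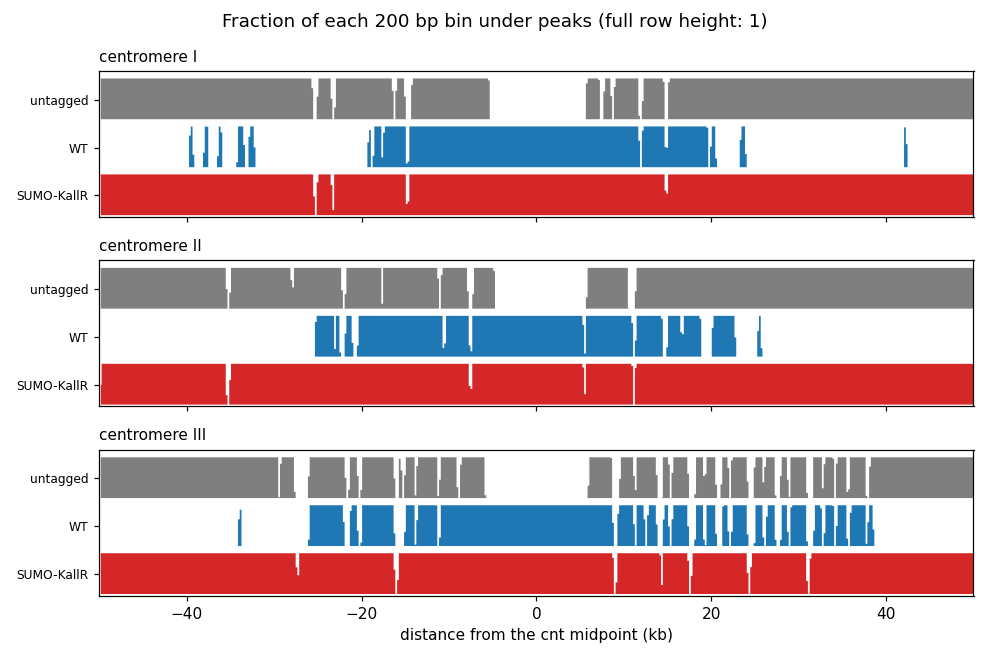
Fraction of each 200 bp bin under peaks against the distance from the *cnt* midpoint (kb) for the 3 libraries at centromeres I, II and III. All 3 centromeres are bare in the untagged list around the midpoint and covered in WT and *SUMO-KallR*, and isolated WT peaks beyond 30 kb on the left are most frequent at centromere I.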

How the data were processed

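Paired reads were trimmed by the authors (Cutadapt) and aligned to ASM294v2 and SacCer3 (Bowtie2). Samtools served to drop duplicates and reads that were unmapped or from rDNA or mitochondria. In MACS3 the input gave the background, depths were scaled, the spike-in set the calibration and each ChIP library had its own peak call. Not given in the sources used here are tool versions, the calling cutoff and the placement of reads with several matches. A later, stricter removal of background is stated for the deposited lists.

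The deposited score of a peak was divided by 10 to give its height, following the MACS convention, which no header states. Other deposited columns, as start, end and summit, are positions. The lists hold no read counts, so the depth behind a peak is unknown and no counting interval can be given. Heights depend on the depth of the library and were ranked within a list.

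ASM294v3 (RefSeq) gave sequence and genes. The genome size given to MACS3 by the authors exceeds its chromosomes by 19431 bp, close to its mitochondrial genome of 19433 bp, and 0 peaks ran past a chromosome end. Inverted repeats of at least 1000 bp and 95% identity were found with BLAST+ 2.17.0. Uniqueness refers to single 150-base sequences, and the second read of a pair can reach further. The fraction of each bin under peaks was computed with Python 3.11.15 and NumPy 2.4.6, checked on simulated peaks, and plotted with matplotlib 3.10.9. No test between strains was made, since each has 1 library. The window, the lists, the alternatives and the rule for what is named were chosen with earlier results of these data known. By that rule the text names every WT peak, every peak over the centromere, the highest in the flanks, stretches of at least 200 bp without a peak in the repeats, stretches under 1 tagged list, all tRNA genes and genes at peak ends. The input libraries were not analysed here. Some sequences at summits and ends of peaks are not reported here.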

Additional observations from a re-analysis of the deposited data

How the results depend on the processing

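The alternatives were any base of a bin or the whole bin in place of 50%, height floors of 5, 20 and the 95th percentile of untagged heights (48.3), peaks of at least 300 bp, joining of peaks less than 500 bp or 1000 bp apart, a grid shifted by 100 bp, bins of 100 bp and, added after the values had been seen, pairing by aligned bases.

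The *otr* bins under *SUMO-KallR* and not WT peaks became 1 with any base and 0 with peaks joined below 500 bp, since joining closes the WT stretches of 183, 206 and 291 bp on which the 4 bins rest. Untagged bins fell to 278 at the floor of 48.3. Joined below 500 bp, the peak over *cnt* reached 17263 bp left and 18384 bp right of *cnt* in WT and 104278 bp and 73499 bp in *SUMO-KallR*, and joined below 1000 bp 17263, 18384, 104278 and 102935 bp. Mirrored pairs that differed in *SUMO-KallR* were 1 with any base, 3 with bins of 100 bp, 3 on the shifted grid, 14 at the floor of 48.3 and 0 after joining. In WT they were 11 at each of the 3 floors, since these remove the 10 flank peaks. In the untagged strain they were 22 with whole bins, 32 at a floor of 20, 162 at the floor of 48.3 and 6 after joining. By aligned bases, in units of 200 bp, they were 3.14 in WT and 0.545 in *SUMO-KallR*. The counts of bins under WT peaks, under *SUMO-KallR* peaks, under WT and not untagged peaks, and under *SUMO-KallR* and not WT peaks in the flanks stayed within 1.5 times under the alternatives run for them, which leave out joining below 1000 bp (run for the ends of the peak over *cnt*) and pairing by aligned bases (run for the mirrored pairs).

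No paired analysis was possible because each strain has 1 ChIP library, and leaving out a library would leave a strain without values. The lists hold no read depth.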

Other observations

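Genes annotated as lncRNA made up 55 of the genes that touch the window. The share over all lncRNA genes of the genome was not counted. Outside the 3 windows 95.6% of bins were under untagged, 0.0244% under WT and 92.7% under *SUMO-KallR* peaks. Of the 55 genes, untagged peaks touched 52 and covered 39 whole, WT peaks touched 34 and covered 21 whole, and *SUMO-KallR* peaks touched all 55 and covered 51 whole. The 3 without an untagged peak lay between the tRNA-Glu genes: SPNCRNA.233 in *cnt*, and SPNCRNA.333 and SPNCRNA.396 in the right *imr*, the latter holding both tagged summits. These 3 were chosen for naming after their values were seen. SPNCRNA.333 and SPNCRNA.396 had no unique 150-base start, and 8.94% of the starts in SPNCRNA.233 were unique.

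Bins not under untagged peaks numbered 71 and had a median AT share of 72%, against 65% for the 429 under them. For WT the order was turned, with 69% in the 208 bins under peaks and 64.5% in the 292 others. The median share of unique starts was 0% in WT bins under peaks and 100% in the others. Of the 208 bins, 176 lay in *cnt*, *imr* or *otr*. The AT share was 63.9% in the left and 64.6% in the right flank, 67.2% and 66.9% in the *otr* and 71.3% in *cnt*. These contrasts were not separated from the part in which a bin lay.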
